A study of Mus musculus with 2 samples.

Results

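Nr4a2 neurons were the excitatory neurons of the embryonic mouse cortex in which at least 3 molecules of Nr4a2 messenger RNA were counted. Nr4a2 (Ensembl ENSMUSG00000026826, chr2:57106830-57124003 on GRCm38.p6) encodes an orphan nuclear receptor. Cell barcodes were kept if they showed 1000 or more genes and no more than 10% of UMIs from mitochondrial genes, where a UMI (unique molecular identifier) stands for 1 captured transcript. Membership further required at least 3 UMIs of Neurod2 and Neurod6 together, at most 1 UMI of Gad1 and Gad2 together and at most 1 UMI of Tfap2d. By this rule 315 of 22347 kept barcodes were Nr4a2 neurons. Embryo 4 gave 139 of 10879 (1.28%, 1.08 to 1.51 as exact 95% binomial limits) and embryo 5 gave 176 of 11468 (1.53%, 1.32 to 1.78). Of the barcodes that met all conditions other than the one on Nr4a2, they made up 2.24% of 6193 (1.89 to 2.64) and 2.64% of 6656 (2.27 to 3.06). The intervals of the embryos overlapped on both denominators, and they cover counting error only.

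The samples were 2 wild-type embryos at embryonic day 16.5, numbered 4 and 5, with 1 library each. The submitters describe them as controls of a line named EomesMllt3 (EoMltt3 in the sample titles) with wild-type genotype, and no mutant was used here. The tissue is given as brain hemispheres and the protocol names the cortex, which was dissociated with papain, and libraries were made with the 10x Genomics 3′ v3.1 chemistry, which reads the 3′ ends of polyadenylated transcripts. The libraries held 12825 and 12289 barcodes with 124318613 and 117679925 UMIs, and 46 barcode sequences occurred in both, none of them a member. Each embryo is 1 animal, so every test below rests on 2 sums per group, and embryo and library cannot be told apart.

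Nr4a2, also called Nurr1, binds DNA without a known natural hormone and is best known as a factor that midbrain dopamine neurons need. In the cortex it marks neurons of the subplate, an early-born layer beneath the cortical plate that receives the first thalamic axons, and neurons of the claustrum and the neighbouring endopiriform nucleus. Deep-layer corticothalamic neurons are born soon after the subplate and share several of its transcription factors.

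The genes used for selection are described here without a test. Member cells held 3 to 24 Nr4a2 UMIs in embryo 4 and 3 to 33 in embryo 5, with a median of 5 in each. Just inside the threshold, 39 and 48 members had exactly 3 UMIs. Just outside it, 90 and 101 otherwise qualifying cells had 2, and 418 and 411 had 1. At the upper end 20 and 40 members had 10 or more. Summed over members, Nr4a2 reached 377 and 542 CPM (UMIs on a counts-per-million scale). Neurod2 stood at 364 and 345 CPM, against 474 and 461 in excitatory neurons without an Nr4a2 UMI. Neurod6 stood at 856 and 986 CPM in members and 1004 and 1005 in those cells. The residual Gad1 level was 0.917 and 0 CPM and that of Tfap2d 0.917 and 2.84 CPM.

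Members were compared with 3 groups of excitatory neurons from the same libraries. Nr4a2-negative excitatory neurons met the same conditions with 0 Nr4a2 UMIs (5546 and 5968 cells). Foxp2 neurons were the part of these with at least 3 UMIs of Foxp2, a deep-layer transcription factor (2243 and 2180 cells). Tfap2d neurons had at least 3 Tfap2d UMIs and 0 Nr4a2 UMIs (297 and 356 cells). Counts were summed per embryo and group and tested with edgeR's quasi-likelihood method, with Benjamini-Hochberg adjustment over all genes tested and calls at an adjusted p under 0.05. Differences are given as log2 fold change ± standard error (SE), members minus the other group. The comparisons share the Nr4a2 sums, so a deviation in those sums enters each of them.

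Depth differed between the groups. The median was 14772 UMIs per member in embryo 4 and 12147.5 in embryo 5, against 11030.5 and 9634.5 in Nr4a2-negative neurons, 11172 and 9673 in Foxp2 neurons and 9739 and 8151.5 in Tfap2d neurons. Median mitochondrial shares of members were 2.94% and 2.42%, next to 2.77% and 2.49% in Nr4a2-negative neurons. Top doublet scores, assigned at the rate set by library size, fell on 25 members of embryo 4 (18.0%) and 30 of embryo 5 (17.0%), against 7.48% and 8.09% of Nr4a2-negative neurons. Both embryos thus had the larger share of such scores among members. The part of depth in the results was not tested apart from the alternatives named beside them.

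Markers of other cell types were low in the sums of members, apart from radial glia and red cells. For the 7 interneuron markers the summed level was 3.67 and 2.44 CPM, with Dlx2 the most abundant in embryo 4 at 1.38, no gene above 0.406 in embryo 5 and Dlx5 at 0 in both embryos. The 4 oligodendrocyte precursor markers summed to 0 and 1.22 CPM, with Pdgfra and Olig1 at 0 in both. The 4 microglia markers summed to 3.67 and 6.09 CPM, mostly P2ry12 at 2.29 and 4.47, with C1qa and C1qb at 0. None of these lists came near the levels of neuronal genes. The 5 vascular markers summed to 5.96 and 15.4 CPM with Col4a1 in front (3.21 and 9.75), Pecam1 at 0 in embryo 4 and Rgs5 at 0 in embryo 5. For the 7 Cajal-Retzius markers the sum was 56.8 and 23.6 CPM, nearly all Reln (54.1 and 18.3), with Lhx1 and Lhx5 at 0 in both. The 8 radial glia markers summed to 593 and 435 CPM, led by Fabp7 (284 and 230), next to 470 and 448 CPM in Nr4a2-negative neurons, and none was at 0. Haemoglobin genes summed to 138 CPM in embryo 4 and 2246 in embryo 5, where 1 member held 4864 haemoglobin UMIs of its 14312, and no other member of embryo 5 held more than 12. The part of these other RNAs in the results was not tested, other than by leaving out that cell and the cluster rich in radial glia genes.

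The working label of the group names subplate and claustrum-type neurons, and the markers bore it out only in part. Several markers of the mature subplate were nearly absent. Ccn2, a secreted matrix protein, stood at 0.917 and 0.406 CPM, Cplx3, a regulator of vesicle release, at 0.458 and 0.406 CPM, and Moxd1 at 0 in both embryos. Nr4a2-negative neurons were lower still, at 0.137 and 0.111 CPM for Ccn2 and 0.0607 and 0.111 CPM for Cplx3. None of these genes was tested. Nxph4, a neurexin ligand of subplate neurons, was at 20.2 and 13.4 CPM against 18.5 and 16.8 in Nr4a2-negative neurons and was not called (log2 fold change -0.053 ± 0.19), but was called higher in cells without UMIs of newborn neuron genes (0.81), described below. The 2 groups overlapped for Nxph4, and depth sets a limit for the rarest markers, since 3 UMIs in the sums equal 1.38 and 1.22 CPM.

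Other subplate markers were higher. Kcnab1, a β subunit of voltage-gated potassium channels, reached 184 and 182 CPM in members and 15.8 and 17.01 in Nr4a2-negative neurons, a log2 fold change of 3.51 ± 0.09 (edgeR quasi-likelihood, Benjamini-Hochberg adjusted p = 4.0e-07). Gabra5, an α subunit of the GABA-A receptor, was at 33.5 and 25.2 against 4.63 and 5.35 CPM (2.58 ± 0.19). The adhesion gene Cdh10 was at 498 and 778 against 157 and 159.5 CPM (2.05 ± 0.20). For these genes each Nr4a2 sum lay above each Nr4a2-negative sum. Of the 14 subplate markers 10 passed the filter on low counts, 5 were called higher and none lower, with a median log2 fold change of 0.88, where 12.6% of all 12337 genes tested were called higher and 8.88% lower and the median over all genes was -0.0016. Pls3 and Inpp4b were the other genes called. This list, like the others, was chosen with earlier results of these data known, so its counts are no test of the label. Gabra5 and Cdh10 also stand on the GABA receptor and cadherin lists below. Tmem163 was at 15.6 and 6.91 against 28.7 and 27.04 CPM and was not called (-1.31 ± 0.44). It was called lower under 6 alternatives, with Benjamini-Hochberg adjusted p from 0.0013 to 0.0356 by edgeR quasi-likelihood, among them the embryo as a paired block (-1.32), and changed sign in cells without newborn neuron UMIs (0.32).

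Claustrum and endopiriform markers were divided. Gnb4, a G protein β subunit much used as a claustrum marker, was at 39.4 and 71.9 CPM in members against 27.1 and 29.4 (1.03 ± 0.23). B3gat2, a glucuronyltransferase, was at 66.9 and 82.5 against 28.3 and 32.5 CPM (1.33 ± 0.14). In contrast Ntng2, a membrane-anchored netrin relative, was lower at 40.3 and 54.04 against 76.2 and 82.6 CPM (-0.71 ± 0.14). The groups did not overlap for these genes, with members high for Gnb4 and B3gat2 and low for Ntng2. Of 11 markers on the list 7 were tested, 3 were higher (with Gng2 the third) and 2 lower (Ntng2 and Rgs12), with a median of 0.50. In cells without UMIs of newborn neuron genes, described below, B3gat2 and Ntng2 kept their calls and Gnb4 (0.40), Gng2 (0.24) and Rgs12 (-0.065) did not. Oprk1 and Car3 had 0 UMIs in both embryos and Slc30a3 had 0 in embryo 4. Cells with at least 1 UMI of Nxph4, Ccn2 or Cplx3 numbered 33 of 139 and 23 of 176, cells with a Gnb4 UMI 54 and 65, and cells with both 16 and 11. Among Nr4a2-negative neurons these numbers were 946 of 5546 and 847 of 5968, 1219 and 1331, and 186 and 157, at a lower depth per cell. The group is called Nr4a2 neurons below.

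The question behind the comparison with Nr4a2-negative excitatory neurons is what else sets these cells apart from excitatory neurons without an Nr4a2 UMI, newborn ones included. Of that group only 2058 of 5546 and 2226 of 5968 cells lacked UMIs of the newborn neuron genes named below. In Nr4a2 neurons 11 of 16 glutamate receptor genes, 9 of 11 GABA receptor genes and 6 of 8 genes of layer 6 corticothalamic neurons were called higher, with Foxp2 of the layer 6 list called lower. Genes of newborn neurons, the upper-layer factors Cux2, Pou3f2 and Pou3f3, and the guidance receptors Robo2 and Nrp1 were lower. Among 12337 genes tested 1557 were higher and 1096 lower, of which 750 and 299 changed at least 2-fold. With no filter on low counts 1178 genes were higher and 1241 lower, so the larger number then lay on the lower side.

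By a fixed rule on size, level and direction in both embryos, the leading genes were named. Grin3a, a subunit that lowers calcium flow through NMDA receptors, was at 38.05 and 175 CPM in members and at 4.08 and 3.99 in Nr4a2-negative neurons, a log2 fold change of 4.78 ± 0.51 (edgeR quasi-likelihood, Benjamini-Hochberg adjusted p = 2.6e-04). Il1rapl2, a synaptic relative of the interleukin-1 receptor, was at 128 and 303 against 10.7 and 8.997 CPM (4.49 ± 0.32). Both genes were higher in embryo 5 than in embryo 4, and even the lower sum lay far above the other group. Unc13c, of the family that primes synaptic vesicles, was at 64.6 and 136 against 4.02 and 7.33 CPM (4.19 ± 0.40). Dpp10, an auxiliary subunit of A-type potassium channels, was at 714 and 550.2 against 43.5 and 60.7 CPM (3.63 ± 0.31). Kcnip4, a calcium-binding partner of the same channels, was at 560.2 and 1290.5 against 99.9 and 113 CPM (3.16 ± 0.35). Pde1a, a calcium-dependent phosphodiesterase, was at 337 and 572 against 44.5 and 46.9 CPM (3.35 ± 0.21). Galnt14, an enzyme of O-linked glycosylation, and Caln1, a calcium sensor of the calneuron family, had log2 fold changes of 3.61 ± 0.18 and 3.43 ± 0.24.

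**Figure D1:**
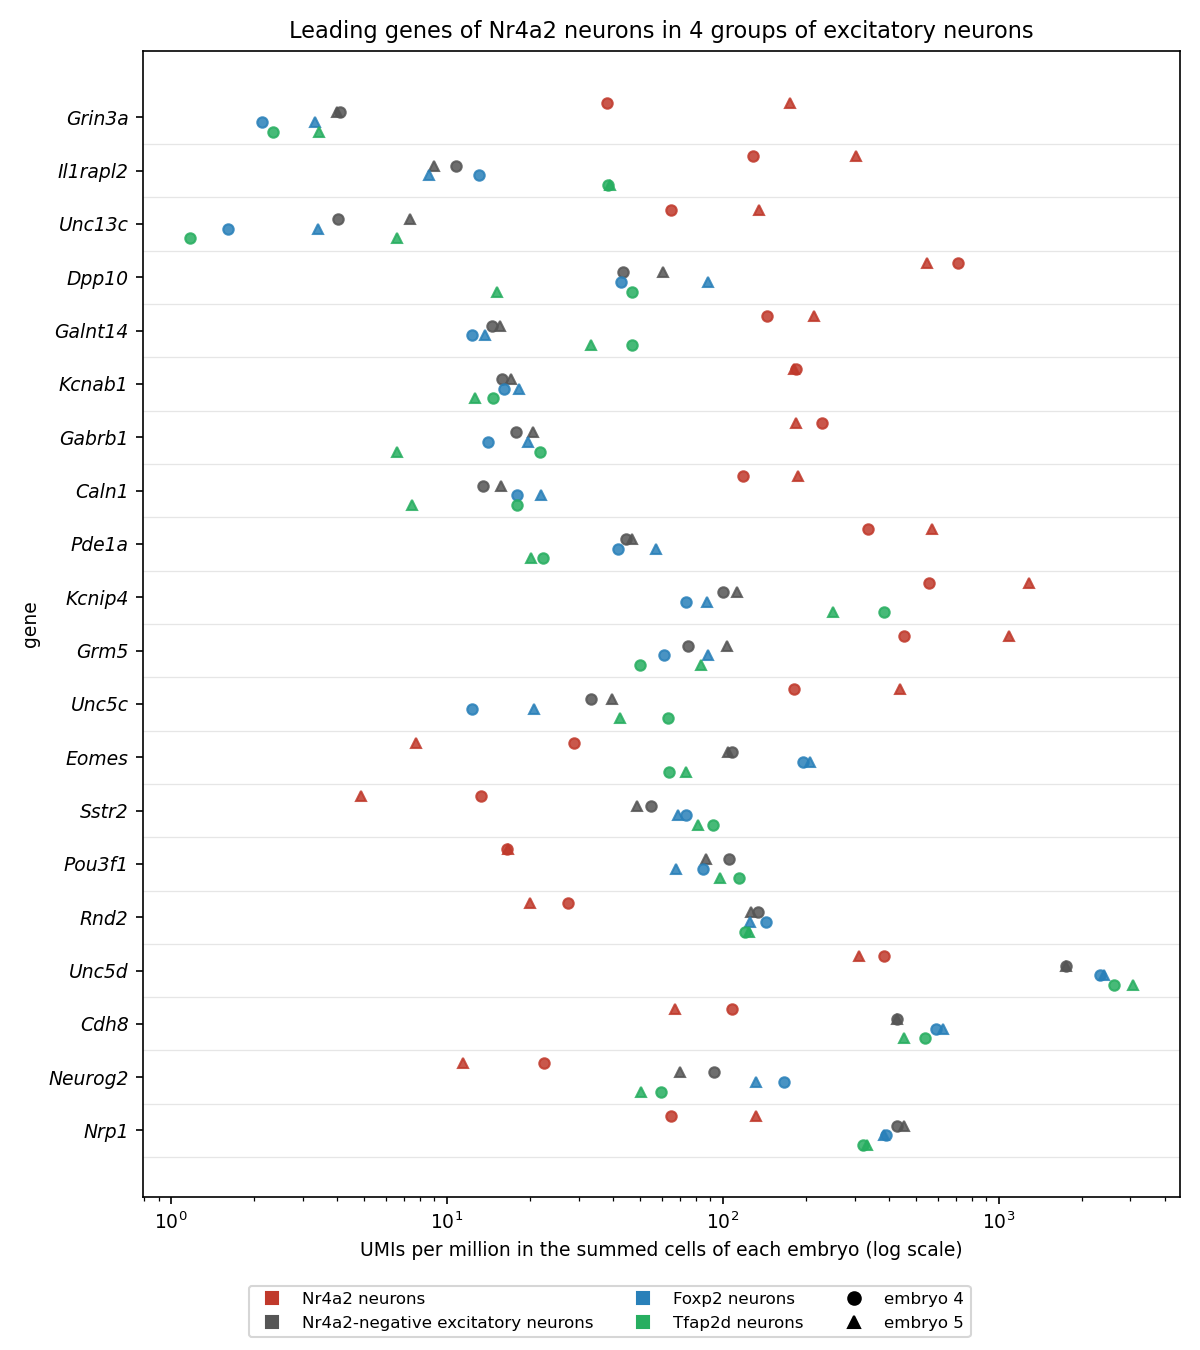
Level of the 12 leading higher and 8 leading lower genes of Nr4a2 neurons against Nr4a2-negative excitatory neurons, in CPM on a log axis, with 1 point per embryo (circle, embryo 4; triangle, embryo 5) and 1 colour per group. Grin3a lies at 38.0 and 175 in Nr4a2 neurons and at or below 4.08 in the other groups, while Unc5d lies at 384 and 311 against 1750 or more.

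Markers of newborn neurons were among the lower genes. Eomes, the transcription factor of intermediate progenitors, was at 28.9 and 7.72 CPM in members against 108 and 104 (-2.54 ± 0.31). Unc5d, a netrin receptor of the multipolar stage, was at 384 and 311 against 1751 and 1749.95 CPM, a log2 fold change of -2.30 ± 0.13 (edgeR quasi-likelihood, Benjamini-Hochberg adjusted p = 1.1e-05). Embryo 5 held the lower value of each in members, and no sums overlapped. All 7 markers of newborn excitatory neurons were called lower (median -2.30), Neurog2, Neurod1, Nhlh1, Sstr2 and Sema3c among them.

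Because the Nr4a2-negative group holds newborn neurons, the comparison was repeated on cells without a UMI of Eomes, Neurog2, Neurod1, Nhlh1 or Sstr2, an alternative chosen after the data were seen. It left 93 and 127 members and 2058 and 2226 Nr4a2-negative neurons. Calls numbered 808 higher and 504 lower, and 716 of the 1557 higher and 410 of the 1096 lower calls remained. Grin3a (log2 fold change 4.14), Kcnab1 (3.36), Gabrb1 (3.76), Tle4 (1.84) and Unc5d (-1.71) kept their calls. Il1rapl2 (3.79), Pde1a (2.76) and Gabra3 (1.44) kept theirs at a smaller size and Cdh10 (2.94) at a larger size. Since these cells are part of the full set in which the genes were called, this was no separate test. Among the genes followed into these cells, the calls of Gnb4 (0.40), Gng2 (0.24), Rgs12 (-0.065), Ntsr1 (0.32), Crym (0.53), Slc17a7 (0.42), Nr4a3 (0.30), Slit1 (0.43), Cdh13 (0.36), Stmn2 (0.38) and Snap25 (0.29) were lost, and those of Ldb2 (-0.18) and Rbfox3 (0.13) were lost with a change of sign. In these cells Nxph4 passed the threshold as higher (0.81, edgeR quasi-likelihood with Benjamini-Hochberg adjusted p = 0.0304). Counts of calls were smaller when 1 sum was left out, with 932 and 566 without embryo 5 of the Nr4a2 neurons, 795 and 502 without embryo 4 of the Nr4a2-negative neurons and 974 and 564 without its embryo 5. With the top doublet scores removed, 1425 of the higher and 983 of the lower calls remained.

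Layer 6 corticothalamic markers were the layer list most clearly higher in members. Tle4, a transcriptional corepressor, was at 903 and 965 CPM against 193 and 224 (2.19 ± 0.10, edgeR quasi-likelihood with Benjamini-Hochberg adjusted p = 7.3e-06). Zfpm2, a cofactor of GATA proteins, was at 1203 and 939 against 413 and 379.9 CPM (1.46 ± 0.20). Hs3st4, a heparan sulphate sulphotransferase, was at 1010.3 and 888 against 291 and 306 CPM (1.70 ± 0.20). Without newborn neuron UMIs Hs3st4 kept its call at 0.99. Members were high in both embryos for each gene. The T-box factor Tbr1 differed less, at 199 and 192 against 122 and 110.1 CPM (0.78 ± 0.08). Of 8 genes on the list 6 were higher (Sla and Ntsr1 also) and 1 was lower, with a median of 1.28. The lower gene was Foxp2, at 261 and 199 against 396 and 347 CPM (-0.66 ± 0.12).

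Upper-layer genes went the other way. The homeobox gene Cux2 was at 25.2 and 62.2 CPM against 132 and 142 (-1.59 ± 0.27). Pou3f2 was at 41.7 and 31.3 against 164 and 149 CPM (-2.08 ± 0.12) and Pou3f3 at 55.9 and 71.1 against 237 and 242 CPM (-1.88 ± 0.12), POU factors of upper-layer neurons. All their sums over members were low, though cluster 1 below differed. On this list of 8 genes 6 were lower and 1, Plxnd1, higher (median -1.48). Of 8 layer 5 subcerebral genes 2 were higher, Ldb2 and Crym, and 1, Pcp4, lower (median -0.0015). Neither higher call remained in cells without newborn neuron UMIs (Ldb2 -0.18 instead of 0.68 ± 0.11), although Crym was of similar size (0.53 instead of 0.58 ± 0.16), and Crym was at -0.23 with at least 5 Nr4a2 UMIs. The subcerebral factors Fezf2 (136 and 93.05 against 121 and 106 CPM) and Bcl11b (499 and 526 against 517 and 558 CPM) were not called.

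To compare cells at a matched depth, each was thinned to 3000 UMIs. Kcnab1 was then detected in 32.4% of the 139 usable members of embryo 4 (24.7 to 40.8, exact 95% binomial) and in 29.3% of 174 usable ones of embryo 5 (22.7 to 36.7), with 0 and 2 shallower cells left out. The shares without thinning were 57.6% and 47.2%. As a measure of free RNA, radial glia (median depth 11332 and 10460 UMIs) had a Kcnab1 UMI in 3.98% and 3.30% of cells after thinning and in 11.5% and 10.3% before it. Shares of members thus lay well above those of radial glia in both embryos. This covers Kcnab1 only, and it does not set members against other excitatory neurons at matched depth.

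Calls in other regional and cell-type lists are given next, where 12.6% of all genes tested were called higher and 8.88% lower. Of 7 hippocampal and subicular markers 5 were tested, with 1 lower, the homeobox gene Meis2 (median -0.50). Of 6 piriform and amygdala markers 1 was higher, the orphan receptor Nr2f1 (median -0.40). Among interneuron markers 1 of 7 was tested and it was not called, while of 7 Cajal-Retzius markers 3 were tested and Ebf3 was lower. Radial glia genes gave 1 higher (Hes1) and 1 lower (Pax6) of 8, and vascular genes 1 lower (Rgs5) of 2 tested. Within members the summed radial glia genes were highest in cluster 5, which is rich in top doublet scores and described below. No gene was called among 1 microglia and 4 erythroid markers tested, and no oligodendrocyte precursor marker could be tested.

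Receptor genes for both main transmitters had calls in the higher direction. Of 16 glutamate receptor genes 11 were called higher and none lower (median 1.06). Grm5, a metabotropic receptor coupled to calcium release, was at 453 and 1088 CPM against 74.7 and 103 (3.15 ± 0.39). Grin2a, the NMDA receptor subunit of maturing synapses, was at 113 and 139.8 against 16.2 and 20.4 CPM (2.83 ± 0.17). Grik3, a kainate receptor subunit, was at 384 and 417 against 75.7 and 79.4 CPM (2.40 ± 0.08). Grm5 was higher in embryo 5, whereas Grik3 was nearly level, and neither overlapped the other group. Without newborn neuron UMIs Grm5 (2.18) and Grik3 (1.60) kept their calls at a smaller size. The AMPA receptor subunit Gria4 was at 302 and 494 against 92.2 and 89.1 CPM (2.17 ± 0.22).

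GABA-A receptor subunits were called higher for 9 of 11 genes and lower for none, with a median of 1.70. Gabrb1 was at 228 and 184 CPM against 17.8 and 20.6, a log2 fold change of 3.45 ± 0.23 (edgeR quasi-likelihood, Benjamini-Hochberg adjusted p = 2.2e-05). Gabrb2, the β subunit common in adult cortex, was at 198 and 221 against 61.1 and 71.01 CPM (1.70 ± 0.10). Gabra3 was at 52.3 and 44.7 against 11.3 and 11.99 CPM (2.09 ± 0.19). All 3 β subunits and 4 of the α subunits on the list were among the called genes, high in both embryos.

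Among vesicular transporters the glutamate transporters were divided. Slc17a7 (VGLUT1) was at 43.5 and 39.01 CPM in members against 27.4 and 23.9 (0.71 ± 0.13). Slc17a6 (VGLUT2), the form of early neurons, was at 35.3 and 20.3 against 122 and 112 CPM (-2.06 ± 0.17). These were the 2 of 5 transporters tested, and in cells without newborn neuron UMIs Slc17a6 kept its call while Slc17a7 did not (0.42). Of 12 neuropeptide genes 4 were tested and 1 was called, Cck (cholecystokinin), at 51.3 and 49.6 against 14.4 and 13.5 CPM (1.89 ± 0.15). Tac1, Penk, Pdyn, Vip, Crh and Cartpt had 0 UMIs in the members of both embryos.

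Of 8 genes for neurotrophins and their receptors 5 were tested, 3 were higher and 1, Sort1, lower (median 0.55). Ntrk2, the receptor for BDNF, was at 198 and 201 against 108 and 106 CPM (0.93 ± 0.07). Ntrk3, the receptor for neurotrophin-3, was at 684 and 703 against 475 and 496 CPM (0.55 ± 0.09), and Ngfr was the other higher gene. The sums of Ntrk2 and Ntrk3 were close between embryos and did not overlap between groups.

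Among nuclear receptors of the NR4A family and their retinoid X partners, Nr4a3 was the only called gene of 3 tested on a list of 5, at 57.3 and 42.7 against 28.8 and 30.8 CPM (0.77 ± 0.15). It was not called in cells without newborn neuron UMIs (0.30). Of 10 immediate early genes 6 were tested and 1, Fos, was higher, at 14.2 and 6.91 against 3.78 and 3.63 CPM (1.52 ± 0.31). Both Nr4a3 and Fos respond to neuronal activity and to tissue handling, whose part here was not tested. Genes of midbrain dopamine neurons were close to 0. Th, which makes the dopamine precursor, had 0 UMIs in members of both embryos, as had Pitx3, En1 and Foxa2, and the 10 genes summed to 4.13 and 5.28 CPM, led by Slc18a2. Only 1 of the 10 was tested and it was not called.

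Guidance genes split in direction. Of 29 genes 27 were tested, 9 were higher and 10 lower (median -0.21). Robo2, a receptor for Slit repellents, was at 603 and 738 CPM against 2497 and 2501 (-1.87 ± 0.11). Nrp1, a receptor for class 3 semaphorins, was at 65.1 and 132 against 427 and 454 CPM (-2.12 ± 0.24). Dcc, the attractive netrin receptor, was at 1472 and 1446 against 2668 and 2677 CPM (-0.84 ± 0.11). These receptors were low in both embryos. Unc5c, a repulsive netrin receptor, was instead higher at 181 and 439 against 33.3 and 39.6 CPM (3.13 ± 0.34). Plxnc1, the receptor for semaphorin 7A, was at 48.1 and 56.9 against 16.04 and 15.998 CPM (1.75 ± 0.13), and the ligand gene Slit1 at 86.6 and 85.3 against 39.4 and 48.04 CPM (1.01 ± 0.12).

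Adhesion and matrix genes had more calls higher than lower. Of 12 cadherins 7 were higher and 2 lower (median 0.97). Cdh9 was at 35.3 and 21.9 CPM against 2.17 and 2.47 (3.64 ± 0.25) and Cdh18 at 85.7 and 52.4 against 10.6 and 11.8 (2.65 ± 0.36), type II cadherins that set which cells adhere. Cdh8 was lower, at 108 and 67.04 against 429 and 427 CPM (-2.27 ± 0.18). Embryo 4 held the higher value of all 3 genes in members, without overlap between groups. Without newborn neuron UMIs Cdh9 (3.03), Cdh18 (2.03) and Cdh8 (-1.30) kept their calls at a smaller size. Of 23 matrix and secreted genes 18 were tested, 7 were higher and none lower (median 0.97). Vcan, the chondroitin sulphate proteoglycan versican, was at 474 and 377 against 126 and 120.2 CPM (1.82 ± 0.12). Nxph3, a neurexin ligand, was at 60.97 and 50.4 against 14.4 and 14.8 CPM (1.96 ± 0.12), and Igfbp3 and Spock3 had log2 fold changes of 1.92 ± 0.17 and 1.99 ± 0.18.

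Genes of neuronal maturation were called higher for 5 of 9 and lower for 2 (median 0.45). Syt1, the calcium sensor of fast vesicle release, was at 1178 and 1386 CPM against 337 and 355 (1.92 ± 0.11). Camk2b, a calcium-dependent kinase, was at 116 and 128 against 46.1 and 48.2 CPM (1.40 ± 0.09). Rbfox3 (NeuN) was lower, at 162 and 197 against 256 and 283 CPM (-0.55 ± 0.12). In cells without newborn neuron UMIs Syt1 (1.38) and Camk2b (0.996) kept their calls, Stmn2 (0.38) and Snap25 (0.29) lost theirs and Rbfox3 turned to 0.13, not called.

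The comparison with Foxp2 neurons asks how members differ from neurons chosen in the same way by another transcription factor. Of 12452 genes 1918 (15.4%) were higher and 1462 (11.7%) lower, with a median over all genes of 0.0059, and Foxp2 itself was selected on and not tested. Unc13c was at 64.6 and 136 against 1.60 and 3.40 CPM (5.41 ± 0.45). Gabrb1 was at 14.05 and 19.7 CPM in Foxp2 neurons (3.66 ± 0.27), Kcnab1 at 16.1 and 18.2 (3.46 ± 0.10) and Grin3a at 2.13 and 3.32 (5.37 ± 0.59). Tle4 was at 292 and 361 CPM (1.57 ± 0.12), between the levels of members and of all Nr4a2-negative neurons. Eomes was lower in members (-3.45 ± 0.31), where Foxp2 neurons held 195 and 207 CPM, against 108 and 104 in Nr4a2-negative neurons.

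The 7 newborn markers summed to 2972 and 3079 CPM in Foxp2 neurons, 3209 and 3691 in Tfap2d neurons and 2201 and 2205 in Nr4a2-negative neurons. Of the comparisons with other neurons this one kept the smallest part of its calls without newborn neuron UMIs (396 of 1918 higher and 128 of 1462 lower). In cells without newborn neuron UMIs, 641 and 672 Foxp2 neurons were left, and calls numbered 443 higher and 263 lower. Of the 15 leading genes still tested 13 kept their calls, Unc13c (6.60), Grin3a (5.63), Gabrb1 (4.40) and Kcnab1 (2.86) among them, and Plcxd2 and Cdh8 did not. Having been chosen in the full set, which holds these cells, the leading genes were not tested separately by this. Tle4 stayed higher at 0.70 instead of 1.57 ± 0.12. In contrast Hs3st4 (0.89 ± 0.20), Tbr1 (0.65 ± 0.09) and Ldb2 (0.92 ± 0.11) changed sign to -0.23, -0.014 and -0.37, and Cux2 (-1.40 ± 0.27) to 0.54, none of them called. Zfpm2 (0.28), Grik3 (0.44), Gnb4 (0.19) and Slc17a6 (-0.80) lost their calls. Calls also numbered 1121 and 870 without embryo 5 of the Nr4a2 neurons, 1098 and 849 without embryo 4 of the Foxp2 neurons and 1283 and 833 without its embryo 5, and with no filter on low counts 2407 genes were lower.

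For the lists, glutamate receptors gave 12 higher of 16 (median 1.19) and GABA receptors 10 of 11 (median 1.61) against Foxp2 neurons, with none lower in either, Grik3 being among those that lost their calls without newborn neuron UMIs. Subplate markers gave 5 higher and 3 lower of 10 tested (median 0.58), the lower ones being Tmem163, Lpar1 and Svil. Claustrum markers gave 3 higher and 1 lower of 7 (median 0.76), with the call of Gnb4 lost in those cells. Newborn markers were lower for all 7 (median -2.95).

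Against Tfap2d neurons, another group selected on 3 UMIs of 1 transcription factor, members were higher in layer 6 genes. Of 12337 genes 1530 (12.4%) were higher and 1124 (9.11%) lower, with a median over all genes of -0.0051. Hs3st4 was at 1010.3 and 888 CPM in members and 105 and 56.3 in Tfap2d neurons (3.61 ± 0.22). Tle4 was at 138 and 128 CPM in Tfap2d neurons (2.86 ± 0.11). Tbr1 was level, at 190.2 and 191 CPM against 199 and 192 in members, and was not called (0.082 ± 0.09). The predicted gene Gm49678 led the higher genes, at 47.2 and 54.9 against 0.586 and 2.01 CPM (5.33 ± 0.31). Grik3 was at 25.8 and 24.7 CPM in Tfap2d neurons, a log2 fold change of 4.03 ± 0.10 (edgeR quasi-likelihood, Benjamini-Hochberg adjusted p = 1.9e-07).

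Genes lower than in Tfap2d neurons were led by Thsd7a, a thrombospondin-domain protein, at 21.5 and 25.2 against 654 and 669 CPM (-4.77 ± 0.11). The transcription factor Ebf1 was at 5.50 and 1.63 against 86.7 and 73.8 CPM (-4.49 ± 0.28), and the thyroid hormone receptor Thrb at 4.13 and 1.63 against 47.8 and 68.4 CPM (-4.33 ± 0.36). Cux2 was at 292 and 332 CPM in Tfap2d neurons (-2.77 ± 0.27). All these sums of members lay below those of Tfap2d neurons. Layer 6 markers were higher for 7 of 8 (median 1.98), and layer 5 markers for 5 of 8 with 1 lower (median 1.11). Subplate markers were higher for 6 of 10 with 1 lower (median 1.12), and radial glia markers for 3 of 8 with none lower (median 0.74). Radial glia markers summed to 2804 CPM in cluster 5 of the members, described below, against 132 in the other members. In that cluster 90.9% and 100% of cells had top doublet scores. Piriform and amygdala markers were lower for 4 of 6 (median -1.14). Without newborn neuron UMIs 61 and 76 Tfap2d neurons were left, and calls numbered 623 and 517, with all 18 leading genes still tested keeping theirs. Those genes had been chosen in the full set, which holds these cells, so this was no separate test. Calls numbered 987 and 723 without embryo 5 of the Tfap2d neurons.

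Levels were next read along the number of Nr4a2 UMIs per excitatory cell, as a description without a test, since Nr4a2 was selected on. Grin3a went from 4.08 and 3.99 CPM in cells with 0 Nr4a2 UMIs to 124 and 598 in those with 10 or more. Il1rapl2 went from 10.7 and 8.997 to 520.3 and 800.2 CPM and Gabrb1 from 17.8 and 20.6 to 452 and 263. These genes, chosen after their values were seen, were highest in the cells with most Nr4a2 in both embryos. The leading gene Dpp10 was not, at 761 and 7.02 CPM with 10 or more against 523 and 858 with 3. A second course was seen for the layer 6 genes Hs3st4 and Zfpm2 and for Kcnab1, which were highest in the middle of the range. Hs3st4 was at 291 and 306 CPM with 0 UMIs, 1233 and 1602 with 3 and 269 and 133 with 10 or more. Zfpm2 went from 413 and 379.9 through 1526 and 1505 to 585 and 200.04 CPM, and Kcnab1 from 15.8 and 17.01 through 187 and 304 to 158 and 38.6. Kcnab1 was uneven in embryo 4, at 138 CPM with 4 UMIs and 219 with 5 to 9. For Hs3st4, Zfpm2 and Kcnab1 the cells with 10 or more UMIs lay below those with 3, in both embryos. Unc5d was at 1751 and 1749.95 CPM with 0, 988 and 621 with 2 and 345 and 228 with 10 or more, though in embryo 4 it was lower with 5 to 9 (292) than with 10 or more. Cells with 1 or 2 Nr4a2 UMIs, outside the rule, lay between for Hs3st4 (687 and 560.1 CPM with 1, 1028 and 961 with 2). Median depth was 14910 and 12591 UMIs in cells with 3 and 13308.5 and 12853 in cells with 10 or more, so those classes were of like depth.

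**Figure D2:**
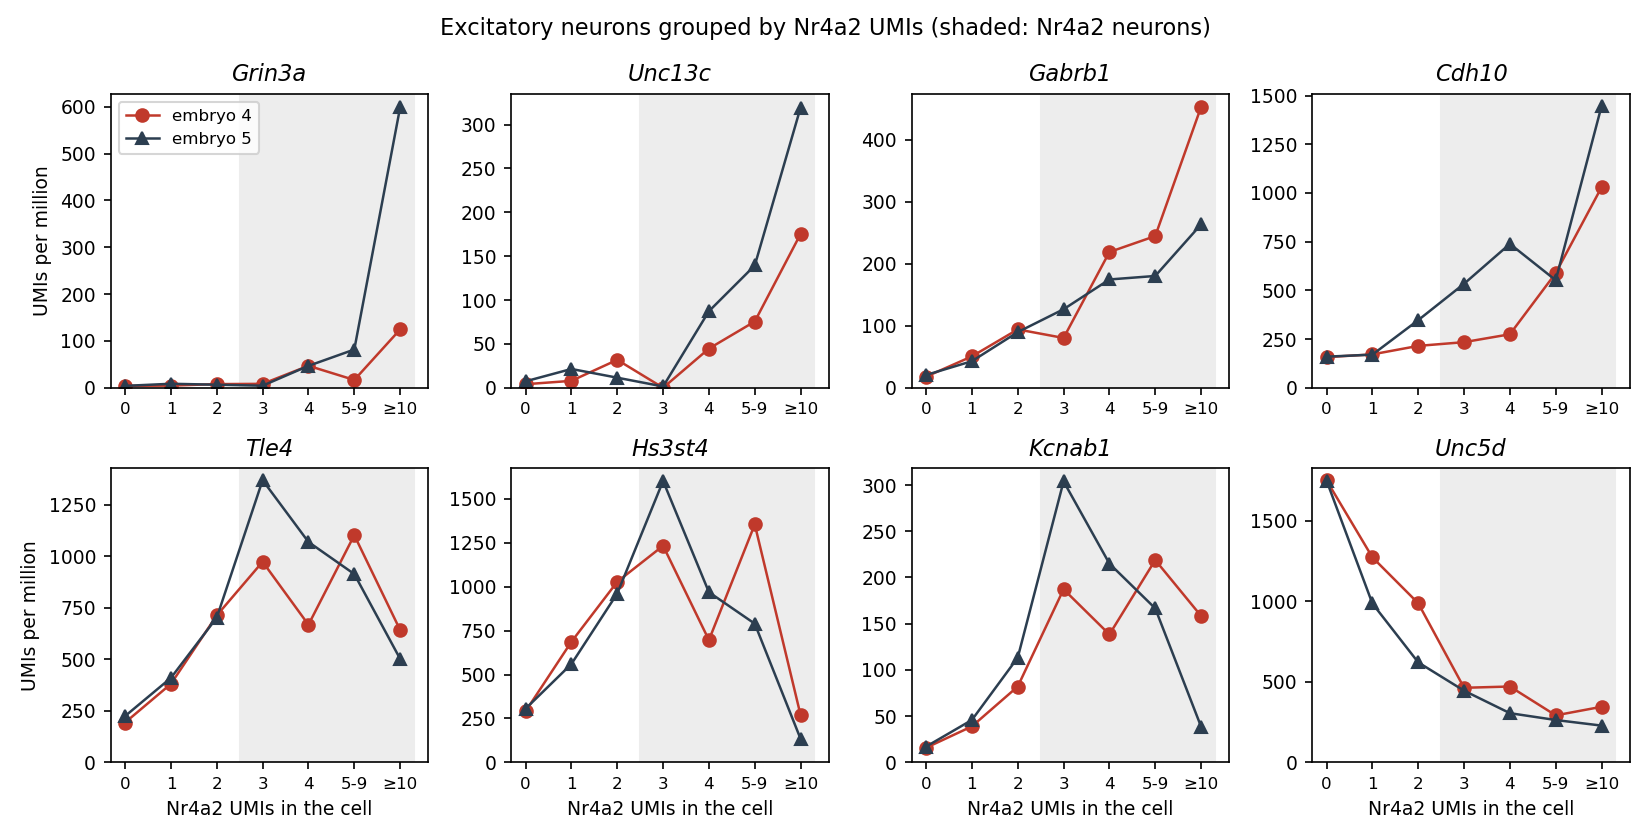
CPM of 8 genes (vertical axes, linear from 0) in excitatory neurons grouped by their number of Nr4a2 UMIs (horizontal axis), with 1 line per embryo and the classes that make up Nr4a2 neurons shaded. Grin3a ends at 124 and 598 in cells with 10 or more, whereas Hs3st4 stands at 1233 and 1602 in cells with 3 and at 269 and 133 in cells with 10 or more.

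Clustering of the 315 members on variable genes other than those of the rule gave 6 clusters, each with cells of both embryos, and 9 at the higher resolution of 1. Their leading genes defined them and are given as a description. Cluster 0 held 46 members of embryo 4 (33.1%, 25.4 to 41.6 as exact 95% binomial limits) and 44 of embryo 5 (25%, 18.8 to 32.1), and its leading genes included Dpp10, Hs3st4 and 3 haemoglobin genes, the member richest in haemoglobin being in this cluster. Hs3st4 stood there at 2729 and 2764 CPM, Tle4 at 1843 and 2252 and Kcnab1 at 433 and 506. Nxph4 was also highest in this cluster, at 36.9 and 39.9 CPM. Cluster 3, with 23 members in each embryo (16.5% and 13.1%), also carried Tle4 (1218 and 1535 CPM), together with Sema3e, Tshz2 and Fezf2 (276 and 216 CPM).

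Clusters 1 and 2 had little Hs3st4, with 12.5 and 5.62 CPM in cluster 1 and 44.1 and 134 in cluster 2. Cluster 1 held 17 (12.2%, 7.29 to 18.9) and 44 (25%, 18.8 to 32.1) members and was led by Angpt1, Plxna4, Kcnip4 and Grin3a. Tle4 stood there at 20.9 and 28.1 CPM, Grin3a at 226 and 543 and Kcnip4 at 2384 and 4155. The 8 upper-layer genes summed to 1378 CPM in this cluster against 383 in the other members, next to 1182 and 1210 in Nr4a2-negative neurons. Cluster 2 held 19 (13.7%) and 31 (17.6%) members, with Unc13c at 454 and 620.3 CPM, Il1rapl2 at 969.98 and 832 and Grin2a at 388 and 477. Both had the higher Nr4a2 counts, the median cell having 5 and 7.5 in cluster 1, 8 and 10 in cluster 2 and 4 and 4 in cluster 0. Grin3a and Il1rapl2, highest in the cells richest in Nr4a2, were thus highest in clusters 1 and 2, and Hs3st4, Zfpm2 and Kcnab1 in cluster 0. Gabrb1 did not follow this division, with 25.1 and 7.49 CPM in cluster 1, 705 and 318 in cluster 2 and 591 and 262 in cluster 3. Embryo 5 had the larger share of members in cluster 1, where Grin3a and Kcnip4 are highest, and also the higher summed levels of these genes over all members. With 1 library per embryo that difference between embryos has no replicate.

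Clusters 4 and 5 held most of the top doublet scores. Cluster 4 had 23 (16.5%) and 20 (11.4%) members, with Lef1, Nrp1 and Gabra2 among its leading genes, and top doublet scores on 34.8% and 50% of cells. Cluster 5 had 11 (7.91%) and 14 (7.95%) members and was led by Gm29260, Gli3 and Fabp7, genes of progenitors, with Fabp7 at 1599 and 1491 CPM against 49.1 and 27.7 in cluster 0. Of its cells 90.9% and 100% had top doublet scores, and their median depth was 25760 and 23539 UMIs. Both measures thus set cluster 5 apart from all other clusters. Without this cluster, an alternative chosen after the data were seen, 128 and 162 members gave 1830 higher and 1587 lower genes against Nr4a2-negative neurons, and all 20 leading genes kept their calls. The leading genes had been chosen in the full set, which holds these cells, so this was no separate test.

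**Figure D3:**
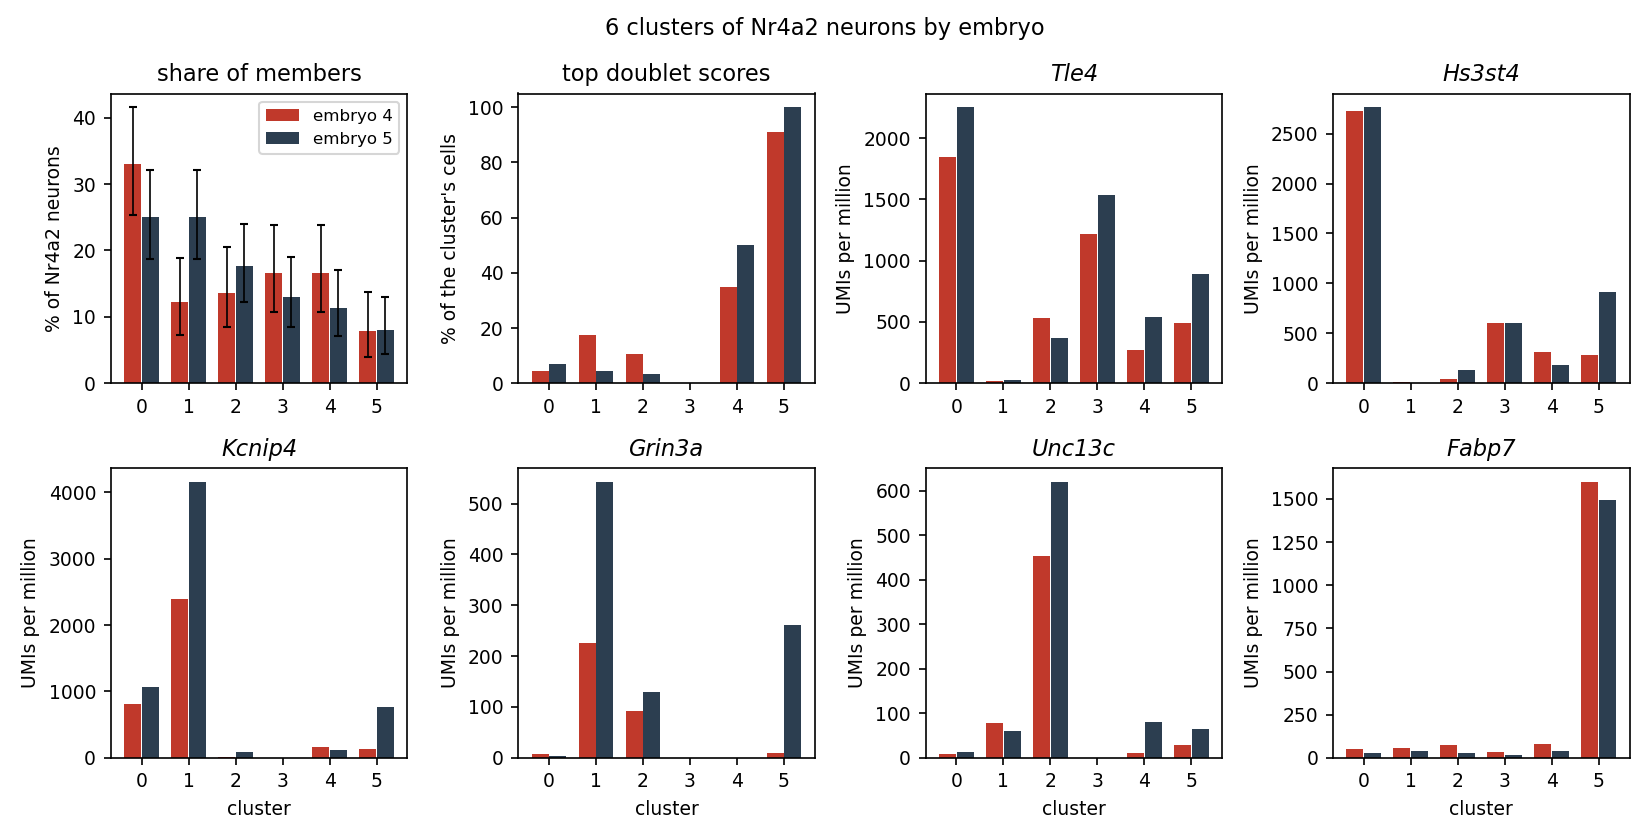
Clusters of Nr4a2 neurons (horizontal axes) in embryo 4 (red) and embryo 5 (dark blue), as share of the members with exact 95% binomial intervals, share of cells with top doublet scores, and CPM of 6 genes. Tle4 is at 1843 and 2252 in cluster 0 and at 20.9 and 28.1 in cluster 1, and Kcnip4 at 815.5 and 1073 in cluster 0 and 2384 and 4155 in cluster 1.

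To ask whether members with subplate UMIs differ from the others, members with at least 2 UMIs of Nxph4, Ccn2 and Cplx3 together (12 and 8 cells) were compared with those having 0 (106 and 153 cells). Ccn2 and Cplx3 were at 0 in the first arm, so its cells were chosen by Nxph4 alone. The 2 embryos of that arm stood apart. Its 7 newborn markers summed to 1503 CPM in embryo 4 and 0 in embryo 5, against 347 and 453 in the other arm. Its 8 layer 6 genes summed to 3897 and 8864.5 CPM, against 3462 and 2636 in the other arm. Of 9133 genes 29 (0.318%) were higher and 15 (0.164%) lower, with a median over all genes of -0.024. Among the higher genes were some best known from progenitor cells. Gli3, the effector of hedgehog signalling, was at 326 and 139 CPM against 39.7 and 42.99 (2.55 ± 0.33). Cdk6, a kinase of the cell cycle, was at 197 and 104 against 16.02 and 7.25 CPM (3.80 ± 0.42). Fabp7 was the only radial glia marker called. The cells with subplate UMIs were also deeper, with medians of 19865.5 and 14879.5 UMIs against 13755.5 and 11992. In cells with 5000 to 20000 UMIs 1 of the 29 higher and 6 of the 15 lower calls remained, and with top doublet scores removed 2 and 8. Gli3 was no longer called and changed sign with 5000 to 20000 UMIs (-6.66, from 6 and 5 cells in the smaller arm) and with at least 5 Nr4a2 UMIs (-3.04, from 7 cells and 1). In the latter setting Gm29260 was called lower (-9.32), with embryo 5 a single cell.

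On the lower side were Il1rapl2, at 6.78 and 0 CPM against 161 and 352, Tshz2, a zinc finger gene of deep layers, at 30.5 and 0 against 342 and 271 CPM (-3.96 ± 0.49), and Tafa2, with 0 UMIs in the cells with subplate UMIs of both embryos against 255 and 227 CPM. None of the 7 subplate, 6 claustrum, 8 layer 6 or 8 layer 5 genes tested was called. Without the progenitor cluster 10 and 5 cells were left in the smaller arm and calls numbered 3 higher and 6 lower, with Gm29260 changing sign from 2.34 ± 0.21 to -2.55. In cells without newborn neuron UMIs (4 and 8 against 72 and 105) edgeR's quasi-likelihood test called 0 genes, with 594 at an unadjusted p under 0.05. All 17 leading genes still tested kept their direction there. They had been chosen in the full set, which holds these cells, so this was no separate test. Values were -9.85 for Tafa2, -3.06 for Tshz2, 3.17 for Ntn4 and 2.02 for Cdh18. Gli3 was smaller at 1.32 instead of 2.55, and Tanc1 at 1.44 instead of 2.37. With so few cells the loss of calls does not show that the differences were absent. With the embryo as a paired block the calls numbered 76 and 49, and without the member richest in haemoglobin, which lay in this arm, 61 and 30. Leaving out 1 sum gave 213 and 190 without embryo 4 of the cells with subplate UMIs, 345 and 239 without embryo 5 of these, 88 and 62 without embryo 4 of the cells with 0 and 75 and 43 without embryo 5 of those. The numbers of calls in this small comparison thus changed widely with the setting.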

How the data were processed

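The values are UMI counts in the matrices deposited by the authors, who give Cell Ranger 7.0.0 and mm10, while the matrix header names 7.1.0. Whether intronic reads were counted is not given in the sources used here. Members and gene lists were chosen with earlier results of these data known. Cells were summed per embryo and group. Sums were tested with edgeR 4.0.16 in R 4.3.3 (TMM, filterByExpr, quasi-likelihood, Benjamini-Hochberg, threshold 0.05), with DESeq2 1.42.0 as an alternative. Foxp2 neurons are part of the Nr4a2-negative neurons and had their own fit. Embryo numbers pair the sums, since both come from the same animal, and deviations correlated at 0.151, 0.127 and 0.171 for the comparisons with Nr4a2-negative, Tfap2d and Foxp2 neurons and at -0.00716 for the subplate split. The leading genes are the 12 higher and 8 lower called genes with the largest fold, a mean of 50 CPM or more in either group and the same direction in both embryos. Genes outside the rule and the lists were named after their values were seen. Thinning drew 3000 UMIs per cell, or 5000 as an alternative. Top doublet scores came from simulated doublets at 0.8% per 1000 barcodes. Clusters used scanpy 1.11.5 and leidenalg 0.10.2 (1500 variable genes, 20 components, 15 neighbours, resolution 0.5) in Python 3.11.15. The test was tested on simulated data, where 98.8% of 4-fold changes and 60.2% of 2-fold changes were called for the comparison with Nr4a2-negative neurons and 2.14% of calls were of unchanged genes. For the Tfap2d comparison these were 96.5%, 54.5% and 1.52%, for the Foxp2 comparison 95%, 57.3% and 6.25%, and for the subplate split 81%, 31% and 4.27%. Simulated counts had the same spread for every gene, no embryo effect and changes only in a small set of well-counted genes. The rates therefore need not hold for the real sums. Some markers first listed are not reported here. Of 246 list genes 1, Smim32, was not analysed here.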

Additional observations from a re-analysis of the deposited data

Results flagged for a closer look

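Some kept barcodes had 3 or more Nr4a2 UMIs and lay outside the rule, so no comparison used them. Those that failed a single condition are listed, because any count above 0 meets the rule on data left unused. Barcodes that failed several conditions are not listed. With members included, 169 and 211 kept barcodes had 3 or more Nr4a2 UMIs. Under 3 UMIs of Neurod2 and Neurod6, with the limits on Gad1, Gad2 and Tfap2d met, were 13 such barcodes in embryo 4 and 22 in embryo 5. With 2 or more UMIs of Gad1 and Gad2 and the other limits met there were 7 in embryo 4 and 2 in embryo 5. With 2 or more Tfap2d UMIs and the other limits met there were 3 in embryo 4 and 7 in embryo 5.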

How the results depend on the processing

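The share of members among kept barcodes (1.41%) was 2.26% with at least 2 Nr4a2 UMIs, 0.785% with at least 5, and 1.28% to 1.53% in leave-one-out. At matched depth 30.8% of members had a Kcnab1 UMI, and 38.4% at 5000 UMIs and 52.4% without thinning. For Foxp2 the share was 28.5%, and 38.2% at 5000 UMIs and 48.4% without thinning.

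In cells without newborn neuron UMIs, chosen after the data were seen, calls numbered 808 higher and 504 lower against Nr4a2-negative neurons, 623 and 517 against Tfap2d neurons, 443 and 263 against Foxp2 neurons, and 0 and 0 in the subplate split. Log2 fold changes that changed sign there were Nxph4 0.81, Tmem163 0.32, Ldb2 -0.18, Fezf2 -0.45 and Rbfox3 0.13 against Nr4a2-negative neurons. Against Foxp2 neurons they were Hs3st4 -0.23, Tbr1 -0.014, Ldb2 -0.37 and Cux2 0.54.

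Against Nr4a2-negative neurons other changes of sign were Crym -0.23 with at least 5 Nr4a2 UMIs, and Bcl11b 0.044 without top doublet scores. Bcl11b was 0.034 with 5000 to 20000 UMIs, and 0.080 without the progenitor cluster, also chosen after the data were seen. Fezf2 was -0.052 with no filter on low counts and -0.015 with only the 2 groups compared. Against Tfap2d neurons Tbr1 was -0.014 with at least 2 Nr4a2 UMIs. With no filter 2407 genes were lower than in Foxp2 neurons.

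Leave-one-out gave 795 to 1241 higher and 502 to 783 lower genes against Nr4a2-negative neurons, 987 to 1176 and 723 to 814 against Tfap2d neurons, and 1098 to 1523 and 833 to 1186 against Foxp2 neurons. Ranges were -0.10 to 0.020 for Bcl11b, -0.24 to 0.28 for Fezf2 and -0.35 to 0.22 for Nxph4. It leaves an arm with 1 sum, which is assumed to vary like the others.

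The subplate split (29 and 15 calls) gave 19 and 9 at 5% mitochondrial UMIs, 9 higher with at least 2 Nr4a2 UMIs, 33 lower with at least 5, 10 higher without top doublet scores and 9 higher with 5000 to 20000 UMIs. It gave 3 and 6 without the progenitor cluster, 61 and 30 without the member richest in haemoglobin, 55 and 27 with DESeq2, and 285 and 186 with no filter. Leave-one-out gave 75 to 345 higher and 43 to 239 lower. Gli3 was -3.04 with at least 5 Nr4a2 UMIs and -6.66 with 5000 to 20000 UMIs. Gm29260 was -9.32 (called lower, with 7 cells and 1 in the smaller arm), -2.89 and, without the progenitor cluster, -2.55.

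With the replicate block, a paired fit by embryo, calls numbered 1817 and 1416 against Nr4a2-negative neurons, 1733 and 1370 against Tfap2d neurons, 2091 and 1664 against Foxp2 neurons and 76 and 49 in the subplate split. Over all settings the result for genes named in the text or followed from the lists, a small part of those tested, was the same 2678 times, weaker 103 times, stronger 6 times and reversed 27 times. Clusters numbered 6, and 9 at resolution 1. The cause of the shifts was not tested.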
